A study of Mus musculus with 51 samples.

Results

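The Sox genes Sox1, Sox2, Sox21, Sox4, Sox11, Sox5, Sox6, Sox8, Sox9 and Sox10 were examined for 2 histone marks, H3K27ac and H3K4me1, along the in vitro differentiation of mouse embryonic stem cells into astrocytes. These are 10 of the 22360 coding genes considered, and they were chosen by name, for known roles in neural progenitors and glia, when earlier results of these data were known. All peaks that overlapped the gene body or the 50 kb on either side of it were collected, which gave 1533 of the 803595 peaks in 6 lists. The stages were astrogliogenic neural precursor cells (aNPC), which grow with N2 supplement, EGF and FGF-2, early astrocytes (eA) after 1 day and late astrocytes (lA) after 5 days in DMEM with serum and LIF. All 3 stages come from embryonic stem cells of the C57/BL-6 strain, and none of the libraries used here carried a knockdown. For each mark and stage, 2 replicates were merged by the authors before peaks were called, so that 12 libraries gave 6 lists. A difference between stages therefore has no replicate error, no test across replicates could be made, and each count is a description of 1 merged list.

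Sox proteins are transcription factors that bind DNA through a high-mobility-group domain related to that of Sry. Members of the SoxB1 group, such as Sox1 and Sox2, hold neural cells in the progenitor state, whereas the SoxB2 protein Sox21 counteracts them. SoxC proteins act in newborn neurons and committed precursors, SoxD proteins modulate the timing of glial development, and the SoxE proteins Sox8, Sox9 and Sox10 drive glial fates, Sox9 in astroglia and Sox10 in oligodendrocytes and neural crest. H3K27ac marks active promoters and enhancers, and H3K4me1 marks enhancers that are active or, where H3K27ac is missing, primed.

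In the order aNPC, eA and lA, the H3K27ac lists had 79413, 83433 and 92700 peaks and the H3K4me1 lists 154238, 185478 and 208333, and triplets of values below keep this order. The stage labels were checked at marker promoters. The promoters of all 4 neural progenitor markers carried both marks at every stage, and the promoters of Pou5f1 and Nanog, 2 genes of pluripotent cells, carried neither mark at any stage. Of 6 astrocyte markers, 4, 3 and 4 had an H3K27ac promoter peak, so that this count does not set the stages apart. Gfap, Slc1a3 and Slc1a2 had one at every stage, S100b in aNPC alone, the water channel gene Aqp4 in lA alone and Aldh1l1 at no stage. Of 5 oligodendrocyte lineage markers, 1, 2 and 1 had an H3K27ac promoter peak in aNPC, eA and lA, of 4 neuronal markers 1, 2 and 1, and of 2 neural crest markers 1 at each stage. The part of other cell types in the peaks of the Sox genes was not tested.

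A promoter was taken as the stretch from 1 kb upstream to 100 bp downstream of the start site of a coding transcript. H3K27ac was found at the promoters of 8, 9 and 7 of the 10 Sox genes, where 50.6%, 53.2% and 48.2% of all coding genes had such a peak. H3K4me1 was found at 9, 8 and 8 of the Sox promoters, beside 55.5%, 53.6% and 52.7% of all coding genes. Sox2, Sox21, Sox4, Sox11, Sox5, Sox6 and Sox9 carried both marks at every stage, which held for 33.9% of coding genes. The H3K4me1 promoter peak of Sox4 in lA was weak, with a −log10 q of 4.84, and was absent when peaks with a −log10 q under 5 were left out or when the lists were cut to equal numbers of peaks. The 3 exceptions were Sox1, Sox8 and Sox10. Sox10 was the 1 member with no H3K27ac promoter peak at any stage, a state shared with 44.2% of coding genes.

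**Figure D1:**
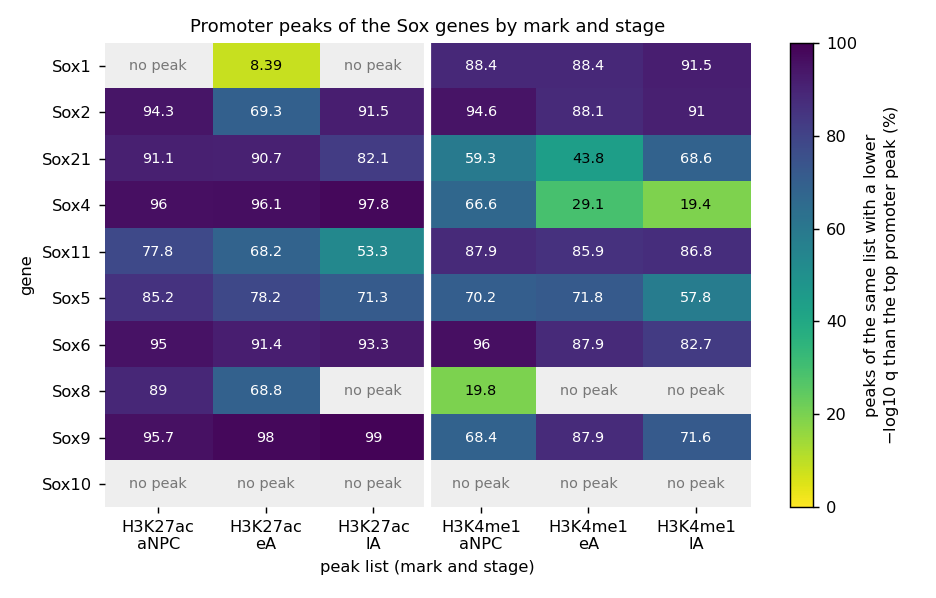
Promoter peaks of the 10 Sox genes (rows) in the 6 peak lists (columns, mark and stage). Each tile gives the percent of peaks of the same list with a lower −log10 q than the strongest peak at the promoter, and grey tiles have no peak. Sox10 is empty in all 6 lists, and within the H3K27ac list of lA Sox9 holds the highest tile, 99.0%.

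The sequencing depth behind each list is not known, so the strength of a peak is given here as its rank within its own list, that is, the percent of peaks of that list with a lower −log10 q. The tile plot of promoter peaks shows this rank for each gene. The H3K27ac promoter peak of Sox9 ranked at 95.7%, 98.0% and 99.0%, and that of Sox4 at 96.0%, 96.1% and 97.8%. The ranks of Sox11 were 77.8%, 68.2% and 53.3%, and those of Sox5 85.2%, 78.2% and 71.3%. The lists differ in length and have no replicate error, so ranks are not compared between stages.

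Among the SoxB1 genes, Sox1 had H3K4me1 at its promoter at every stage and H3K27ac in eA alone. The start site of Sox1 was placed at position 12395519 of chromosome 8 (mm9, plus strand) by an exact match of the 300 bases of its RefSeq promoter (GRCm38.p6) to the mm9 genome, and its window is the 50 kb on either side of this site. In aNPC, H3K4me1 peaks of 557 and 609 bp lay with their summits 536 bp upstream and 184 bp downstream of the start site. In eA and lA a single H3K4me1 peak of 1364 bp and 1192 bp spanned the site. These H3K4me1 peaks ranked at 88.4%, 88.4% and 91.5% of their lists. The H3K27ac peak of eA was 144 bp long, had its summit 303 bp upstream and ranked at 8.39% of its list with a −log10 q of 3.72, so that it was absent when only peaks with a −log10 q of at least 5 were kept. The 250 bases before the Sox1 start site are printed because this weak peak ends within them, and capitals mark the 66 bases inside it.
Sox1 promoter, chr8:12395269-12395518, mm9, plus strand: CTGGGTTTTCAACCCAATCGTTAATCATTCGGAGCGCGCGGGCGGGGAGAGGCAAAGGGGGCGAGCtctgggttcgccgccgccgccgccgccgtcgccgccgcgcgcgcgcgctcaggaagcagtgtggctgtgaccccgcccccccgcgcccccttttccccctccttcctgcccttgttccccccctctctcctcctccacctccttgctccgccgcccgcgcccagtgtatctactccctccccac

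Beyond its promoter, Sox1 was the member with the least H3K27ac coverage at every stage. The window held 4, 3 and 2 distal H3K27ac peaks in aNPC, eA and lA, a distal peak being one that overlaps no coding promoter. H3K27ac peaks covered 1.59%, 1.38% and 1.12% of the window, and 37.4%, 31.9% and 28.2% of coding genes were covered less. H3K4me1 was more common, with 10, 11 and 8 distal peaks that together with the promoter peaks covered 8.46%, 8.94% and 7.29% of the window. At each stage the strongest distal H3K27ac peak lay 34.2 to 35.0 kb downstream of the start site, in an exon of the coding gene Gm5607, and these peaks ranked at 63.0%, 83.8% and 85.5%.

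Sox2, the factor that maintains both pluripotent and neural stem cells, lies at chr3:34548927-34551383 (mm9, plus strand) inside the noncoding gene Sox2ot. Its promoter carried 1 H3K27ac peak of 1382 bp in aNPC with the summit 577 bp upstream, 3 shorter peaks of 378, 440 and 151 bp in eA, and 1 of 1066 bp in lA. The strongest of them ranked at 94.3%, 69.3% and 91.5%. H3K4me1 was present as 1 peak of 1167, 1096 and 1029 bp at the 3 stages, upstream of the start site. Which distal peak was strongest differed between stages. A peak over the Sox2 exon was the strongest distal H3K27ac peak in eA, where it ranked at 92.2%, and a peak about 14 kb downstream was the strongest in aNPC (13.9 kb, rank 89.2%) and lA (13.8 kb, rank 86.7%). The downstream region of 2998 bp held H3K27ac at all stages but overlapped H3K4me1 in aNPC alone.

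Sox2 had 7, 7 and 6 distal H3K27ac peaks and 19, 16 and 16 distal H3K4me1 peaks, all of them nearer to the start site of Sox2 than to that of another coding gene. The H3K4me1 counts were 16, 8 and 11 among peaks with a −log10 q of at least 5, and 19, 10 and 9 with equal lists. Of its 11 distal H3K27ac regions, 3 held H3K27ac at every stage, 3 in aNPC, 3 in eA and 2 in lA alone. The pair of weaker aNPC regions lay 23.9 and 23.5 kb upstream, and no H3K27ac peak was called upstream of the Sox2 promoter in eA or lA. The strongest region of aNPC alone lay 10152 bp downstream within Sox2ot and had H3K4me1 in aNPC alone. It is printed as the 200 bp around its summit, as are the regions below, all from the plus strand of mm9. Capitals mark matches to 5 motifs described with the motif counts, and this stretch held none.
Sox2, aNPC alone, chr3:34559111-34559310: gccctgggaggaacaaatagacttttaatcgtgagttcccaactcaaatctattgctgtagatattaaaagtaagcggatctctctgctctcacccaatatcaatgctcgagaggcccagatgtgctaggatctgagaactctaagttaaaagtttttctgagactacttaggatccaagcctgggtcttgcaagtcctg

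Sox21 (chr14:118632454-118636252, minus strand) encodes the SoxB2 repressor that opposes SoxB1 factors. Its promoter H3K27ac peak measured 2296, 1671 and 924 bp, with ranks of 91.1%, 90.7% and 82.1%. In eA and lA a second, short peak of 175 and 196 bp lay about 300 bp upstream of the first start site. H3K4me1 sat beside these peaks rather than under them, with summits 1233, 1131 and 1050 bp upstream of the start site. Distal H3K27ac peaks numbered 3, 3 and 6 and distal H3K4me1 peaks 13, 12 and 13. The strongest distal H3K27ac peak was the same at all stages, 4.37 to 4.72 kb downstream of the nearest start site, and ranked at 55.7%, 87.5% and 81.1%.

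Sox21 contributed 2 regions with H3K27ac in eA and lA and not in aNPC. The weaker, over an exon 1.74 kb from the nearest start site, overlapped H3K4me1 at no stage. The stronger lay 23.2 kb downstream and outside any annotated gene. H3K4me1 overlapped it at all 3 stages, including aNPC. Its sequence held none of the motifs.
Sox21, eA and lA, chr14:118612017-118612216: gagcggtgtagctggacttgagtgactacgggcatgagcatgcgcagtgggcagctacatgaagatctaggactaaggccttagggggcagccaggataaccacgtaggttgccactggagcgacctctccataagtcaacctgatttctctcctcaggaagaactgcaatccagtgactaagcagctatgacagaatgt

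Of the SoxC genes, Sox4 (chr13:29040788-29045582, minus strand) had the broadest H3K27ac promoter peak of the 10 genes at each stage. They measured 3044, 2290 and 2186 bp, with summits 620 to 699 bp downstream of the nearest start site, and in lA a second peak of 359 bp lay 291 bp upstream of it. H3K4me1 lay upstream of the first start site in shorter peaks of 463, 409 and 210 bp that ranked at 66.6%, 29.1% and 19.4% of their lists. Distal H3K27ac peaks numbered 5, 9 and 6 and distal H3K4me1 peaks 11, 13 and 13. Of 13 distal regions, 5 held H3K27ac in eA alone, and 4 of these were neighbours between 34.6 and 35.5 kb upstream. The number in eA alone was 3 among peaks with a −log10 q of at least 5 and also with equal lists, and 0 with 20 kb on each side. The strongest distal peak lay 4.65 to 4.70 kb upstream at all stages and ranked at 90.1%, 70.6% and 81.5%.

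For all 13 distal Sox4 regions, no other coding gene started closer than Sox4. The strongest region of lA alone lay 21.4 kb downstream, outside any annotated gene, and H3K4me1 overlapped it at all stages. Its sequence held 1 match to the SOX letters.
Sox4, lA alone, chr13:29023420-29023619: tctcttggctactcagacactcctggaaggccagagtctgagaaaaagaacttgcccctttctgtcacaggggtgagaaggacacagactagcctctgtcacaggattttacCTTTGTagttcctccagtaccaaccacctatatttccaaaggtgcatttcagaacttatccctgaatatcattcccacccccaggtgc

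Sox11 (chr12:28025562-28027574, minus strand), the SoxC gene of immature neurons, had more distal H3K27ac peaks in aNPC, 12, than in eA, 6, or lA, 7. H3K27ac covered 8.34%, 3.68% and 4.80% of its window, which placed it above 95.4%, 62.4% and 74.2% of coding genes. Distal H3K4me1 peaks numbered 14, 15 and 16, and 14, 10 and 11 with equal numbers of peaks per list, with a coverage in the full lists of 10.6%, 10.8% and 9.93%. Of 11 distal H3K27ac regions, 5 were held in aNPC alone and none in eA alone, in lA alone or in eA and lA together. At its promoter, the H3K27ac peak measured 887, 440 and 594 bp with the summit 569 to 651 bp upstream, and H3K4me1 summits followed 1033 to 1091 bp upstream. The strongest distal peak lay 30.3 kb downstream in aNPC and lA and 3.12 kb downstream in eA. No other coding gene overlaps this window.

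The SoxD genes are far longer than the rest, and their windows of 1054 kb for Sox5 and 667 kb for Sox6 held 60.1%, 54.4% and 64.2% of the distal H3K27ac peaks of all 10 genes. Sox5 (chr6:143776945-144730497, minus strand) had 53, 33 and 57 distal H3K27ac peaks. Per 100 kb of window these were 5.03, 3.13 and 5.41 peaks, so that eA stood lowest. Nearly all of them lay inside the gene, 53 of 53, 33 of 33 and 55 of 57. Fewer, 42, 24 and 38, had a Sox5 start site as their nearest coding start site. Distal H3K4me1 peaks numbered 84, 80 and 110, and 84, 71 and 80 with equal numbers of peaks per list, where lA no longer exceeded aNPC. Of the 7 annotated coding start sites of Sox5, the 3 near position 144158000 had both marks at every stage and the 4 near position 143895617 had none in any list. An H3K27ac peak also crossed the upstream end of the gene at 144730497 at every stage, with ranks of 91.9%, 89.4% and 93.9%. No annotated coding transcript starts there, so it was counted as distal. With promoters of 1 kb in both directions from every start site, distal H3K27ac peaks of Sox5 numbered 52, 32 and 56.

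The H3K27ac peak at the marked Sox5 promoter measured 1675, 1319 and 1044 bp and lay 210 to 473 bp downstream of the nearest start site. H3K4me1 lay on the other side of it, in 1 peak of 1028 bp in aNPC, 2 of 217 and 972 bp in eA and 2 of 318 and 633 bp in lA. The strongest distal H3K27ac peak of Sox5 was the same intronic peak at each stage, 28.1 to 28.2 kb from the promoter, and its −log10 q of 239 in aNPC was the highest of any distal H3K27ac peak of that list in the 10 windows. It ranked at 99.0%, 93.3% and 96.7% of the lists. Of 76 distal regions, 22 held H3K27ac in aNPC alone, 18 in lA alone, 2 in eA alone, 7 in aNPC and lA, 7 in eA and lA, 1 in aNPC and eA, and 19 at every stage. The 19 became 12 among peaks with a −log10 q of at least 5, and 13 with summits within 250 bp of the strongest summit. The strongest region of each of 4 patterns is printed, each in an intron of Sox5, though the last is nearer to the start site of Bcat1. H3K4me1 overlapped the first 3 at every stage and the fourth, held in lA alone, in eA and lA. The first holds 1 SOX match, in capitals, and the second 1 RUNX match.
Sox5, all stages, chr6:144129719-144129918: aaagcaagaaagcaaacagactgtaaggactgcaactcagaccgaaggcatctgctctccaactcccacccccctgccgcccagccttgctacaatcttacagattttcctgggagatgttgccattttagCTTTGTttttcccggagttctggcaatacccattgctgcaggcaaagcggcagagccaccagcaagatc
Sox5, aNPC alone, chr6:144055978-144056177: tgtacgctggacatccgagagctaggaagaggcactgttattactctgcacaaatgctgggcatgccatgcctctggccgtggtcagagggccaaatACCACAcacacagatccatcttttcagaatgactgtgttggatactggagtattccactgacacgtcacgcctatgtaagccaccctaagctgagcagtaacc
Sox5, eA and lA, chr6:144245983-144246182: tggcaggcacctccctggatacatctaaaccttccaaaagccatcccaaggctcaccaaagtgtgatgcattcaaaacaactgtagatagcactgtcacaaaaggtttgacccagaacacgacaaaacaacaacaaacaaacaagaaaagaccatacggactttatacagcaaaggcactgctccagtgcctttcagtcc
Sox5, lA alone, chr6:144589428-144589627: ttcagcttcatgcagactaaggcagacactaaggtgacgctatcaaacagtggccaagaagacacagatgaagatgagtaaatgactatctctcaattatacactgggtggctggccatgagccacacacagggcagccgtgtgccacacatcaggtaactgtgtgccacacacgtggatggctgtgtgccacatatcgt

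Sox6 (chr7:122614858-123182258, minus strand), the partner of Sox5 in the SoxD group, had 42, 41 and 47 distal H3K27ac peaks and 93, 110 and 116 distal H3K4me1 peaks. With equal numbers of peaks per list these were 42, 37 and 41 for H3K27ac and 93, 88 and 78 for H3K4me1, which turns the direction for H3K4me1 and leaves no excess of H3K27ac peaks in lA over aNPC. Among peaks with a −log10 q of at least 5, the H3K27ac counts were 21, 27 and 37. Sox6 has 5 coding start sites, and their states differed. The sites at 122968221 and 123174561 carried both marks at every stage. The upstream-most site at 123182258 had H3K4me1 at every stage but H3K27ac in aNPC alone, as a peak of 824 bp with its summit 1465 bp upstream and a rank of 83.7%. The site at 122989619 had no peak in any list, and the site at 123138600 had H3K4me1 in eA alone, as a peak of 449 bp.

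Both fully marked sites had wide H3K27ac peaks. At 122968221 the peak measured 2111, 1864 and 1284 bp and ranked at 93.4%, 88.3% and 93.3%, and at 123174561 the main peak measured 1502, 1371 and 1429 bp and ranked at 88.3% in lA, with a further short peak of 190 bp in aNPC and 483 bp in lA. H3K4me1 was widest at 123174561, with peaks of 1752, 1694 and 1851 bp, and measured 441, 438 and 440 bp at 122968221, where eA and lA had a further peak of 203 and 278 bp, and 745, 704 and 729 bp at 123182258. Of 70 distal Sox6 regions, 17 held H3K27ac in aNPC alone, 12 in eA alone, 15 in lA alone and 19 at every stage. Among peaks with a −log10 q of at least 5 these numbers were 4, 6, 9 and 13, and with summits required within 250 bp of the strongest summit 9 regions instead of 19 were held at every stage. The strongest distal peak lay in an intron 103 kb from the nearest Sox6 start site in aNPC and lA. In eA it lay 2.72 kb upstream of the site at 123174561, though nearer to the start site of 1110006G14Rik. A region of lA alone, 4.82 kb upstream of the nearest Sox6 start site and in an intron, had H3K4me1 in lA alone and held 1 SOX match.
Sox6, lA alone, chr7:123143321-123143520: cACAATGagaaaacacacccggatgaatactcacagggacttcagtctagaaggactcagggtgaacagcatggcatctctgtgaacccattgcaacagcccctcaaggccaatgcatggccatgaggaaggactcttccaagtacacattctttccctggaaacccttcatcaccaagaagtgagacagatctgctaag

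Among the SoxE genes, Sox8 (chr17:25702837-25707631, minus strand) had the widest difference between stages in H3K27ac coverage of its window. An H3K27ac peak of 2342 bp lay at its promoter in aNPC and ranked at 89.0%, a peak of 1161 bp ranked at 68.8% in eA, and none was called in lA. H3K4me1 was called at the promoter in aNPC alone, as a peak of 198 bp with a rank of 19.8%. This call was absent among peaks with a −log10 q of at least 5, and with a promoter of 1 kb in both directions lA had an H3K4me1 promoter peak as well. H3K27ac covered 19.4% of the Sox8 window in aNPC, the highest value of all 22360 coding genes, and 8.79% and 5.65% in eA and lA, where 95.5% and 81.3% of coding genes were covered less. The distal H3K27ac peaks numbered 18, 16 and 15, and H3K4me1 covered 18.4%, 17.1% and 14.9% of the window. With equal numbers of peaks per list the distal H3K27ac peaks numbered 18, 16 and 9. In the full lists, 17, 12 and 6 distal H3K27ac peaks had a −log10 q of 5 or more.

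Part of these peaks lay nearer to other genes, since 7 of the distal H3K27ac peaks at each stage had the Sox8 start site as their nearest coding start site. Of 17 distal Sox8 regions, 8 held H3K27ac in aNPC alone, 7 at every stage, 1 in lA alone, 1 in aNPC and lA, and none in eA alone or in eA and lA. The 8 need not be separate elements, since regions that do not overlap were kept apart. Those 29.7 and 31.4 kb downstream flanked a region of all stages at 30.7 kb, and those 26.6 and 27.4 kb upstream were neighbours. The 7 of every stage became 3 among peaks with a −log10 q of at least 5, and also with summits within 250 bp of the strongest summit. The strongest peak of aNPC lay 26.6 kb upstream of Sox8 in an intron of its neighbour Lmf1, ranked at 97.3%, and belonged to a region of aNPC alone that overlapped H3K4me1 at all 3 stages. In eA and lA the strongest distal peak lay 8.76 and 9.54 kb downstream of Sox8. The region of aNPC alone and the strongest region of all stages, 51.0 kb downstream of Sox8 and nearer to the start site of Sstr5, are printed, and neither held a motif match.
Sox8, aNPC alone, chr17:25734104-25734303: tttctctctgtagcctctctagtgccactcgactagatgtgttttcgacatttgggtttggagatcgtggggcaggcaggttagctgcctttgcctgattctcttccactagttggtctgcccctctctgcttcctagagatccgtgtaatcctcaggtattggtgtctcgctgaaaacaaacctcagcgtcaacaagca
Sox8, all stages, chr17:25656037-25656236: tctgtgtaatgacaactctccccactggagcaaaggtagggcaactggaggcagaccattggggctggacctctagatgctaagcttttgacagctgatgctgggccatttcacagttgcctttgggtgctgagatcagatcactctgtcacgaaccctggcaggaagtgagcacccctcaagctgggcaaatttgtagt

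Sox9 (chr11:112643538-112649074, plus strand), which initiates gliogenesis, had 2 H3K27ac peaks at its promoter at every stage, one upstream and one downstream of the start site. The downstream peak measured 1307, 2005 and 1891 bp, with summits 205, 292 and 547 bp into the gene. The upstream peak measured 758, 549 and 343 bp and ranked at 83.9%, 65.4% and 26.7%, against 95.7%, 98.0% and 99.0% for the downstream peak. H3K4me1 flanked this pair, with summits 1067, 1112 and 725 bp upstream of the start site and further peaks at an internal start site at 112646042, 1 of 1236 bp in aNPC, 2 of 236 and 706 bp in eA and 1 of 1058 bp in lA. Distal H3K27ac peaks numbered 8, 7 and 10 and distal H3K4me1 peaks 10, 16 and 18. All lay nearest to Sox9, and no other coding gene overlaps the window.

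In aNPC 2 of 8 distal H3K27ac peaks lay upstream, 14.8 and 15.6 kb from the start site, and in eA and lA every distal H3K27ac peak lay downstream, 7 of 7 and 10 of 10. H3K4me1 overlapped both upstream regions at every stage. A peak 26.8 to 26.9 kb downstream of the nearest start site was the strongest distal H3K27ac peak at each stage and ranked at 84.7%, 86.2% and 79.5%. Of the 9 downstream regions, 3 held H3K27ac at every stage and none in aNPC alone.

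**Figure D2:**
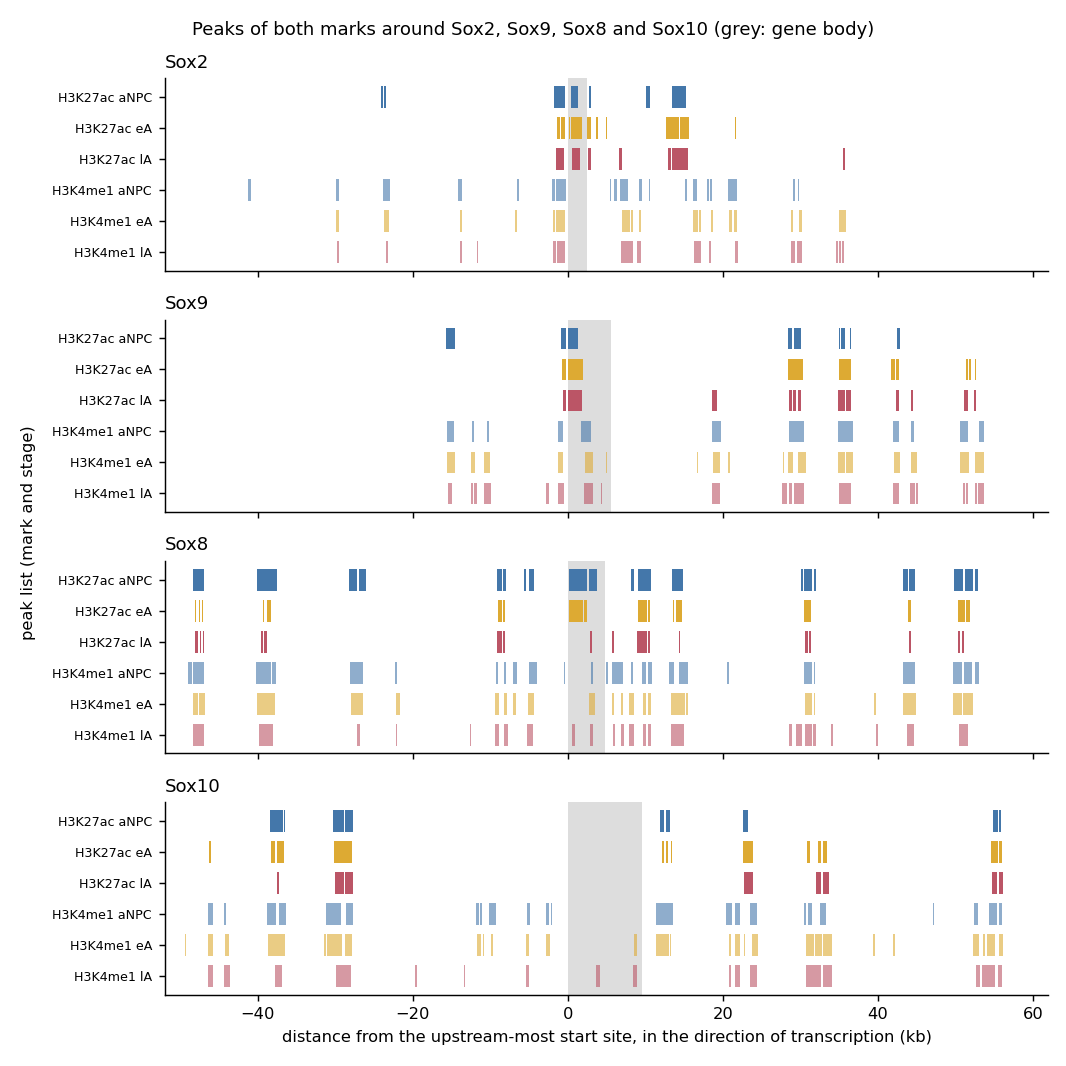
Peaks of both marks by stage around Sox2, Sox9, Sox8 and Sox10, placed by distance in kb from the upstream-most start site in the direction of transcription. Each bar is 1 peak drawn to its length, rows are the 6 peak lists, and grey marks the gene body. Distal H3K27ac upstream of Sox9 is seen in aNPC alone, the wide aNPC peaks of Sox8 are narrower or missing in lA, and the start site of Sox10 is bare.

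Sox10 (chr15:78985343-78994920, minus strand), the SoxE factor of oligodendrocytes and neural crest, carried no promoter peak of either mark at any stage. Its window held 6, 11 and 6 distal H3K27ac peaks and 21, 24 and 15 distal H3K4me1 peaks, none of the H3K27ac peaks inside the gene. H3K27ac covered 6.14%, 7.74% and 5.58% of the window, above 86.8%, 92.3% and 80.9% of coding genes. The window also overlaps the coding genes Micall1, Polr2f and 1700088E04Rik, and 2, 1 and 2 of the distal H3K27ac peaks were nearest to Sox10. The strongest one, 29.1 to 29.5 kb upstream within the noncoding gene Gm10863, was the same at each stage and was nearest to the Sox10 start site among coding start sites. It measured 1354, 2322 and 1148 bp, ranked at 98.1%, 92.2% and 97.0%, and overlapped H3K4me1 at every stage. The map of peaks around Sox2, Sox9, Sox8 and Sox10 shows this block and the bare start site side by side.

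Of the 9 distal Sox10 regions, 3 held H3K27ac in eA alone, 2 in aNPC and eA, 2 in eA and lA, and 2 at every stage. None was held in aNPC alone or in lA alone. With summits required within 250 bp of the strongest summit, none of these regions was held at every stage. The strongest region of all stages by overlap is printed. H3K4me1 overlapped it at every stage, and its sequence held no motif match.
Sox10, all stages, chr15:79023987-79024186: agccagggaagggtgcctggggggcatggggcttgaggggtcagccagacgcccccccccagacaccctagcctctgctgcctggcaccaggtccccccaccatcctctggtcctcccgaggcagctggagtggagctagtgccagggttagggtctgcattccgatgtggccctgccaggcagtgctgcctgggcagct

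Over the 10 genes, 158, 136 and 162 distal H3K27ac peaks and 300, 320 and 348 distal H3K4me1 peaks were found. When every list of a mark was cut to the length of the shortest, these were 158, 125 and 139 for H3K27ac and 300, 261 and 250 for H3K4me1. The direction of the H3K4me1 counts thus turned, and the H3K27ac count of lA fell below that of aNPC. The median window held 5.88, 6.39 and 5.82 distal H3K27ac peaks per 100 kb, where the median of all coding genes was 1.90, 2.64 and 2.73. For H3K4me1 the medians were 13.1, 14.9 and 14.7 per 100 kb, beside 6.53, 7.96 and 8.58 over all coding genes. All 10 Sox genes stood above the all-gene median of H3K27ac peak density in aNPC and eA, and 9 did in lA, with Sox1 below it. Windows of genes that lie close together share peaks, and no test of this difference was made. The bar plot of distal peaks shows Sox8 highest for both marks in aNPC.

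**Figure D3:**
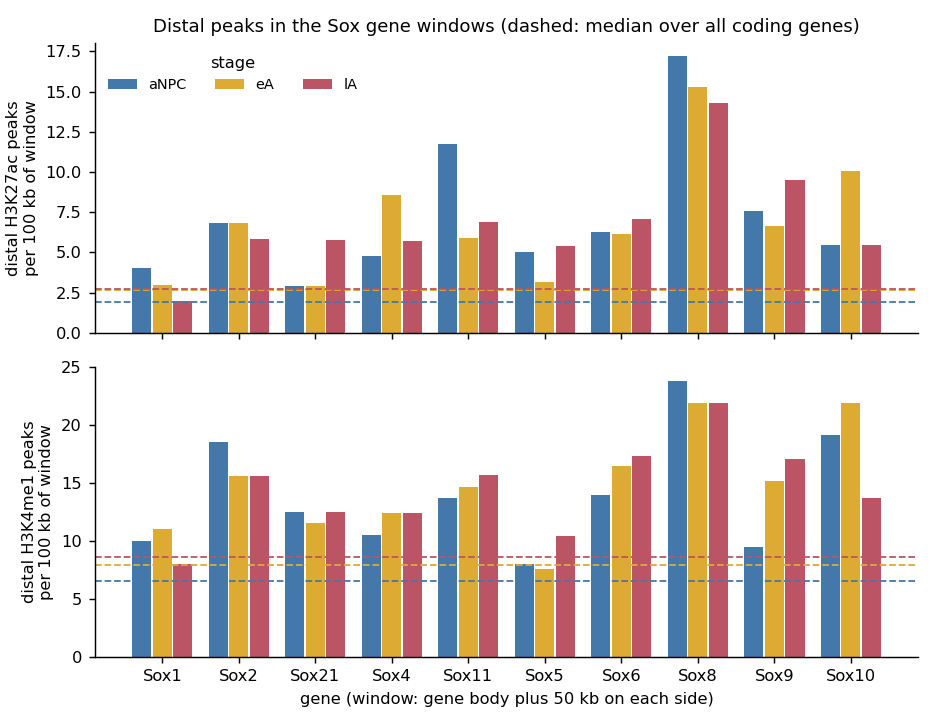
Distal peaks per 100 kb of window for H3K27ac (top) and H3K4me1 (bottom), 1 bar per gene and stage, without replicates. Dashed lines give the median over all 22360 coding genes in the colour of the stage. Sox8 reaches 17.2 H3K27ac peaks per 100 kb in aNPC, and Sox1 in lA, at 2.00, lies under the dashed line.

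Between stages, the members differed in direction. Fewer distal H3K27ac peaks in eA than in aNPC were counted for 6 of 10 Sox genes (Sox1, Sox11, Sox5, Sox6, Sox8 and Sox9), beside 25.2% of coding genes. With 100 kb on each side this count was 4 of 10, beside 26.7%, since Sox1 (8 and 11 peaks), Sox6 (51 and 52) and Sox9 (15 and 17) then had more in eA and Sox21 (7 and 4) fewer. Among peaks with a −log10 q of at least 5 it was 5 of 10, beside 25.1%, and Sox6 had more in eA (21 and 27). With equal numbers of peaks per list it was 7 of 10, beside 27.4%. The shares over coding genes include genes with no such peak in aNPC, which could not have fewer in eA. More in lA than in eA were counted for 5 (Sox21, Sox11, Sox5, Sox6 and Sox9), beside 36.7%, and more in lA than in aNPC for 5 (Sox21, Sox4, Sox5, Sox6 and Sox9), beside 46.7%. With equal numbers of peaks per list, 2 members (Sox21 and Sox4) had more in lA than in aNPC, beside 39.5%, and Sox5 (53 and 50), Sox6 (42 and 41) and Sox9 (8 and 8) no longer did. By coverage, Sox1, Sox4, Sox11, Sox5, Sox6 and Sox8 had less H3K27ac in eA than in aNPC, and these 6 and Sox10 had less in lA than in aNPC, beside 32.4% and 38.3% of coding genes. For H3K4me1, 4 members (Sox4, Sox5, Sox6 and Sox9) had more coverage in lA than in aNPC, beside 65.3%, and 2 did with equal numbers of peaks per list, beside 49.7%, a setting added for this count after the data were seen. Many of these steps were small, as for Sox6 with 42 and 41 peaks or Sox9 with 8 and 7, and a step of 1 peak cannot be told from variation between cultures here. Steps of over 1.5 times between aNPC and eA were seen downward for Sox11, with 12 and 6, and Sox5, with 53 and 33, and upward for Sox4, with 5 and 9, and Sox10, with 6 and 11. The Sox4 step was 5 and 6 among peaks with a −log10 q of at least 5, 5 and 7 with equal lists, and turned to 5 and 4 with 20 kb on each side. The Sox10 step was 2 and 3 with 20 kb on each side, and of its peaks 2 in aNPC and 1 in eA were nearest to Sox10, so that the added peaks of eA lay nearer to other genes.

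H3K27ac peaks of the 3 stages were next merged where they overlapped by at least 1 bp, which gave 230 distal regions in the Sox windows, and 191 of them were nearest to the start site of the member itself. H3K27ac was held in aNPC alone by 62 of the 230 (95% Wilson interval of the share 21.6 to 33.0%), in lA alone by 43 (18.7%, 14.2 to 24.2%) and in eA alone by 28 (12.2%, 8.56 to 17.0%). Of all 115803 distal regions of the genome, 23.9%, 21.7% and 11.8% had these patterns. Regions of all stages made up 63 of 230 (27.4%, 22.0 to 33.5%) beside 19.2% of the genome, and regions of eA and lA 17 of 230 (7.39%, 4.67 to 11.5%) beside 15.3%. The intervals cover counting error over regions only, and regions of 1 window are not independent. Without Sox5 and Sox6, 84 regions remained, of which 25 (29.8%) were held at all stages and 6 (7.14%) in eA and lA.

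**Figure D4:**
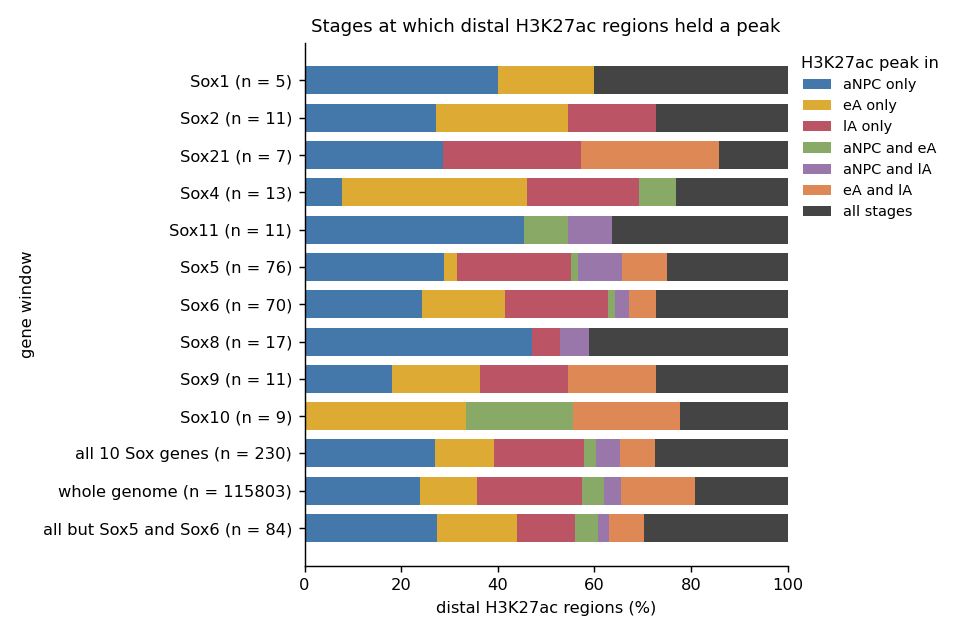
Share of distal H3K27ac regions by the stages that held a peak, in percent, for each Sox window, for all 10 windows, for the whole genome and for the windows without Sox5 and Sox6; n is the number of regions. Regions of aNPC alone make up 8 of 17 in Sox8 and none of 9 in Sox10.

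The stacked bars of stage patterns show how unlike the members were. Regions of aNPC alone were 8 of 17 for Sox8, 5 of 11 for Sox11, 1 of 13 for Sox4 and none of 9 for Sox10. Regions of eA alone were 5 of 13 for Sox4 and 3 of 9 for Sox10 but 2 of 76 for Sox5. Such counts per gene are small and move with the setting, as given above for Sox4 and Sox8. Median widths differed with the pattern, 1392 bp for regions of all stages and 288 bp for those of aNPC alone in the Sox windows, and 972 and 285 bp in the genome.

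H3K4me1 was then read at these regions. Of the 43 regions with H3K27ac in lA alone, 16 (37.2%, 24.4 to 52.1%) overlapped H3K4me1 in aNPC, 33 (76.7%, 62.3 to 86.8%) in eA and 35 (81.4%, 67.4 to 90.3%) in lA. Over the genome these shares were 29.7%, 60.2% and 73.0%. Most late regions of the Sox windows therefore overlapped H3K4me1 in eA, when they had no H3K27ac peak. In Sox5, 6, 14 and 17 of 18 such regions overlapped H3K4me1 in aNPC, eA and lA, and in Sox6 4, 11 and 10 of 15.

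Of the 62 regions with H3K27ac in aNPC alone, 42 (67.7%) overlapped H3K4me1 in aNPC, 37 (59.7%) in eA and 36 (58.1%, 45.7 to 69.5%) in lA, beside 68.3%, 63.4% and 49.3% over the genome. The share in lA was 49.3% (33 of 67) with equal numbers of peaks per list and 37.1% when the H3K27ac summit had to lie inside the H3K4me1 peak. Of the 17 regions of eA and lA, 14 overlapped H3K4me1 in aNPC, beside 69.4% over the genome. Of the 63 regions of all stages 59 (93.7%), 57 (90.5%) and 56 (88.9%) did at the 3 stages, beside the slightly higher 96.7%, 96.2% and 94.8% over the genome. Sox2 stood apart among the latter, since 1, 0 and 0 of its 3 regions overlapped H3K4me1 in aNPC, eA and lA, while all 7 of Sox8 and all 3 of Sox9 did at every stage. The 2 Sox2 regions without H3K4me1 lay close to the start site, over the exon at 0.87 kb and downstream at 2.82 kb. With a promoter of 1 kb in both directions, 2 Sox2 regions of all stages remained. The plot of H3K4me1 shares sets the shares of the Sox windows beside the genome.

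**Figure D5:**
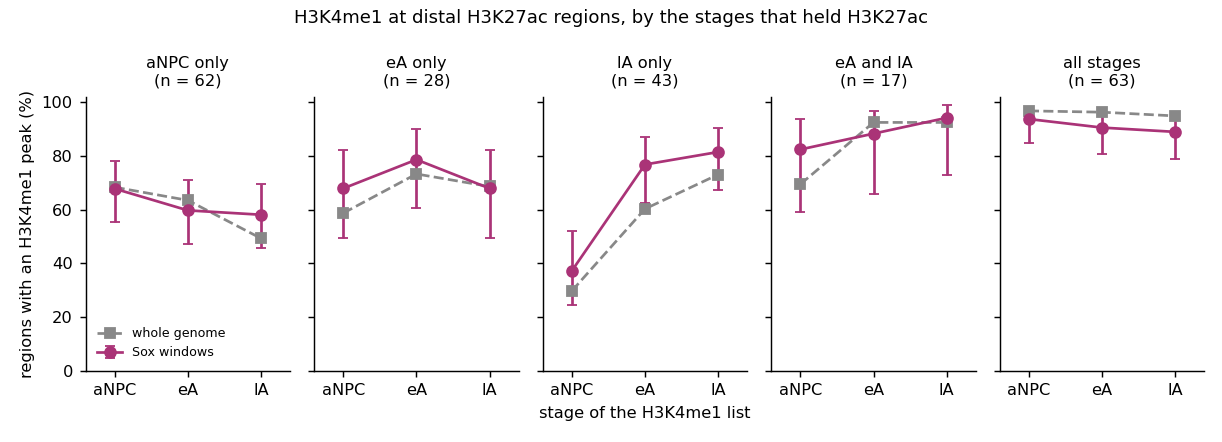
Percent of distal H3K27ac regions that overlap an H3K4me1 peak in aNPC, eA and lA (x axis), in panels by the stages that held H3K27ac, for the Sox windows (circles, bars are 95% Wilson intervals) and the whole genome (squares). For regions of lA alone the Sox windows go from 37.2% in aNPC to 81.4% in lA.

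Seen from H3K4me1, 130 of 300 distal H3K4me1 peaks (43.3%) of the Sox windows overlapped H3K27ac of the same stage in aNPC, 113 of 320 (35.3%) in eA and 136 of 348 (39.1%) in lA, beside 36.1%, 33.2% and 32.1% over the genome. H3K4me1 without H3K27ac at any of the 3 stages was seen for 131 (43.7%), 137 (42.8%) and 160 (46.0%) of the Sox peaks, beside 46.9%, 49.4% and 56.0% over the genome. The members differed, from 5 of 25 in aNPC for Sox8 to 9 of 13 for Sox21.

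Short motifs were matched on both strands in the 200 bp around the summit of the strongest peak of each of the 230 regions. The letters were ACAAAG and ACAATG for SOX proteins, TTGGCA for an NFI half-site, TGANTCA for AP-1 and TGTGGT for RUNX. The SOX pair shares the letters ACAA at its start and differs after them, so that 1 position of a strand cannot match both. ACAAAG was found in 35 regions (15.2%) and ACAATG in 35 (15.2%), beside 18.0% and 10.8% of all distal regions of the genome, and either was found in 66 (28.7%) beside 26.8%. TTGGCA was found in 23 of 230 regions beside 13918 of 115803, TGANTCA in 5.22% beside 6.46%, and TGTGGT in 13.9% beside 14.9%. A match is a run of letters and not a measured binding site. By stage, either SOX motif was in 21 of 62 regions of aNPC alone (27.7% in the genome), 14 of 43 of lA alone (26.4%), 5 of 28 of eA alone (28.1%), 17 of 63 of all stages (25.9%) and 4 of 17 of eA and lA (26.5%).

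The rest of the family was read in the same way as a list of 10 genes (Sox3, Sox7, Sox12, Sox13, Sox14, Sox15, Sox17, Sox18, Sox30 and Sry). H3K27ac was at 3, 3 and 1 of their promoters in aNPC, eA and lA, and H3K4me1 at 6, 4 and 6. Sox12, the third SoxC gene, carried both marks at every stage, and the SoxB1 gene Sox3 and the SoxD gene Sox13 had H3K27ac in aNPC and eA and H3K4me1 at all 3 stages. Sox7, Sox17, Sox30 and Sry had no promoter peak in any list.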

How the data were processed

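Per the labels and the study's methods, the authors mapped the ChIP-seq reads with Bowtie, keeping unique alignments to mm9. They pooled both replicates with SAMtools 0.1.19 and ran MACS2 on the pool with default settings and no input library. The −log10 q of each peak and the summit offset are the authors' deposited values; fold and score columns were not used. Total reads are not given in the sources used here, so −log10 q was read as a rank within its list; it was used across lists only to pick the strongest peak of a merged region, whose summit sets the motif window and printed sequence, and for a common minimum of 5 as an alternative. Mitochondrial peaks were left out. Of 51 samples in the series, 8 RNA-seq libraries have labels that conflict and were left unassigned, and samples other than the 12 ChIP-seq libraries of the 3 stages were not analysed here.

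Genes came from GENCODE M1 on NCBIM37, the same build as mm9. Sox1 was placed by its RefSeq promoter and added as a coding gene with 1 start site. Of 2 Sox4 records the longer was used. A peak is a promoter peak if it overlaps a coding promoter by at least 1 bp and is distal otherwise. Sequences came from the NCBIM37 genome. The Sox genes, other lists and named regions were chosen with earlier results of these data known; every promoter peak of a member, the strongest distal H3K27ac peak per stage and the strongest region of up to 3 members for each of 4 patterns were to be named, and the sequence of 1 such region is not reported here. The overlap, coverage and merging of intervals and the promoter and stage pattern calls were tested on simulated intervals. Tools were samtools 1.23.1, pysam 0.24.0, SciPy 1.17.1, NumPy 2.4.6, matplotlib 3.10.9 and Python 3.11.15. Alternatives were a −log10 q of at least 5, equal numbers of peaks per list, windows of 20 and 100 kb, a promoter of 1 kb in both directions from every start site, summits within 250 bp, and the H3K27ac summit inside the H3K4me1 peak.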

Additional observations from a re-analysis of the deposited data

How the results depend on the processing

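Of 144 comparisons of a value of the 10 Sox genes together with its alternative, 138 stayed within 1.5 times (counts and coverage) or inside the main value's 95% Wilson interval (shares), and 6 did not. With a −log10 q of at least 5, 80.9% of regions of aNPC alone overlapped H3K4me1 in aNPC (38 of 47, instead of 67.7%). When a stage counted only with a summit within 250 bp of the strongest summit, regions of aNPC and eA made up 5.65% (2.61% before) and regions of all stages 17.0% (27.4% before), where the genome shifted likewise, from 19.2% to 13.6%. When the H3K27ac summit had to lie inside the H3K4me1 peak, regions of aNPC alone overlapped H3K4me1 in 54.8% of cases in aNPC and 37.1% in lA, and regions of all stages in 79.4% in aNPC. By construction the last setting can only lower a share.

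With equal numbers of peaks per list, distal H3K4me1 peaks numbered 300, 261 and 250 instead of 300, 320 and 348, within 1.5 times but in the other direction between stages. Distal H3K27ac peaks numbered 158, 125 and 139 instead of 158, 136 and 162, so that lA fell below aNPC.

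Single genes were less stable. With a −log10 q of at least 5, the H3K27ac promoter peak of Sox1 in eA and the H3K4me1 promoter peaks of Sox4 in lA and Sox8 in aNPC were absent, the Sox4 peak also with equal numbers of peaks per list, and with a promoter of 1 kb in both directions from every start site Sox8 had an H3K4me1 promoter peak in lA. With equal numbers of peaks per list, Sox8 had 9 distal H3K27ac peaks in lA instead of 15, and with a −log10 q of at least 5 it had 6. The eA-alone regions of Sox4 (5) ranged from 0 with 20 kb on each side to 6 with 100 kb, and the all-stage regions of Sox10 (2) were 0 with summits within 250 bp or 20 kb on each side. With 100 kb on each side, 4 instead of 6 of 10 genes had fewer distal H3K27ac peaks in eA than in aNPC. With equal numbers of peaks per list 7 of 10 did. No paired analysis was possible because each list merges both replicates, so that neither replicates nor depth could be compared.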
